A study of Homo sapiens with 6 samples.

Results

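The superoxide dismutases SOD1, SOD2 and SOD3, catalase (CAT) and the SOD1 copper chaperone CCS were followed in SK-OV3 cells, a human ovarian carcinoma line, after knockdown of the long non-coding RNA PVT1. These 5 genes were taken by symbol from the 59653 genes of the count table, and all 5 were among the 19008 genes that passed the filter on low counts. The genes were chosen by their family, with their differences between siPVT1 and siControl in these same libraries already known. The values of the 5 genes are therefore given as a description, with their errors and without p-values. Where a call at an adjusted p under 0.05 is named for them, it is part of that description and not a test. The 3 siControl libraries came from cells given a non-targeting siRNA pool and the 3 siPVT1 libraries from cells given a pool against PVT1, each at 50 nM for 48 h. Both groups are the same wildtype line, so each condition rests on 1 cell line and 1 siRNA pool.

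Superoxide is made when oxygen takes up a stray electron, mainly at the respiratory chain and at NADPH oxidases, and the dismutases turn it into hydrogen peroxide and oxygen. The enzymes divide the cell between them. SOD2 uses manganese and works in the mitochondrial matrix, SOD1 uses copper and zinc and works in the cytosol and the mitochondrial intermembrane space, and SOD3 is a secreted copper and zinc enzyme that binds the extracellular matrix. CCS hands copper to SOD1, and catalase, in the peroxisome, breaks hydrogen peroxide down to water and oxygen. SOD2 is known as the inducible dismutase, raised by inflammatory cytokines through NF-kB, while SOD1 is held to be a housekeeping gene.

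Total counts per library ran from 28383171 to 35059576. PVT1, the targeted RNA, stood at 3289 to 4080 normalized counts in the siControl libraries, where a normalized count is a count scaled to the libraries' common effective size, and at 2057 to 2344 in the siPVT1 libraries (log2 fold change −0.72, SE 0.097). Replicates varied more among the siPVT1 libraries, where the chi-square between a pair, divided by its degrees of freedom, was 8.62 to 45.3 against 1.75 to 5.67 among the siControl libraries. A pair of libraries stood apart in LYZ and GPX2, genes that were named after their values were seen. The lysozyme gene LYZ was at 248 normalized counts in siControl replicate 2 and 86.1 in siPVT1 replicate 2 but at 4.61 to 18.0 in the others, and the gut glutathione peroxidase GPX2 was at 58.4 and 14.2 there but at 2.22 or less elsewhere.

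The windows before the start sites of the genes differed in sequence. RefSeq promoter windows on GRCh38.p14 were found for 4 of the 5 genes, as 7 windows of 250 bases before a start, 4 of them for SOD2. The SOD2 window shown lies at chr6:159693242-159693491 on the minus strand, ends at the start of the canonical transcript and is 80.8% G and C. The CAT window lies at chr11:34438684-34438933 on the plus strand and is 68.8% G and C. Both are shown because SOD2 and CAT were the pair whose levels were called higher, by very different amounts. Capitals mark the matches to a GC box (GGGCGG) or a CCAAT box (CCAAT), searched on both strands, with overlapping matches counted.
SOD2: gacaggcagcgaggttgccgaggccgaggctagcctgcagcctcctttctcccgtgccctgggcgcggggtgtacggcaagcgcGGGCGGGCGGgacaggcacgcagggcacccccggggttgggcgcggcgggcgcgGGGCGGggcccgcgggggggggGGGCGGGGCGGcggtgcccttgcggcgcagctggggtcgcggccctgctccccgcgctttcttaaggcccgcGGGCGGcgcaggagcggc
CAT: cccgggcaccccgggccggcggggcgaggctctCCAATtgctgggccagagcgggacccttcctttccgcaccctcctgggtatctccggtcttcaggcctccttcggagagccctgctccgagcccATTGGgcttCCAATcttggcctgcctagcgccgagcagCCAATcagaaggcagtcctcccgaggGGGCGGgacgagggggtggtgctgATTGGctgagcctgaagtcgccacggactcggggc
The SOD2 window held 6 GC boxes and no CCAAT box, whereas the CAT window held 1 GC box and 5 CCAAT boxes. The other SOD2 windows held 1, 4 and 1 GC boxes and 1, 0 and 3 CCAAT boxes. The SOD3 window held 1 CCAAT box and no GC box, and the CCS window held neither. Among all 35114 RefSeq windows of this length, 42.6% held a GC box and 32.01% a CCAAT box. The antioxidant response element TGACNNNGC, found in 10.9% of all windows, had 1 match, in the CCS window. No match was found in any of the 7 windows for the AP-1 site TGANTCA (6.57% of all windows), the hypoxia response core ACGTG (18.5%), the FOXO site GTAAACA (2.98%) or the NF-kB consensus (9.96%), which says only that those letters were not in these windows.

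The mitochondrial dismutase SOD2 (ENSG00000291237, chr6:159669069-159762529 on the minus strand, GRCh38) had the largest log2 fold change of the 5. It was at 10363, 9386 and 10419.7 normalized counts in siControl replicates 1 to 3 and at 66699, 65508 and 61300.1 in siPVT1 replicates 1 to 3. The groups did not overlap, and the lowest siPVT1 library lay far above the highest siControl library. The means were 10056 ± 581 and 64502 ± 2837 (SD, n = 3 each), a 6.41-fold higher level with siPVT1 (log2 fold change 2.68, SE 0.070). Leaving out any 1 library gave log2 fold changes of 2.64 to 2.702. By log2 fold change SOD2 ranked 297 from the top of the 19008 genes tested. Its transcripts took 0.0341% of all library counts on average with siControl and 0.197% with siPVT1. In these bulk libraries, more RNA per cell and more cells with that RNA cannot be told apart. Counting error was small here, with exact 95% Poisson intervals that reached on average 0.767% to 2.04% of the count to either side.

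**Figure D1:**
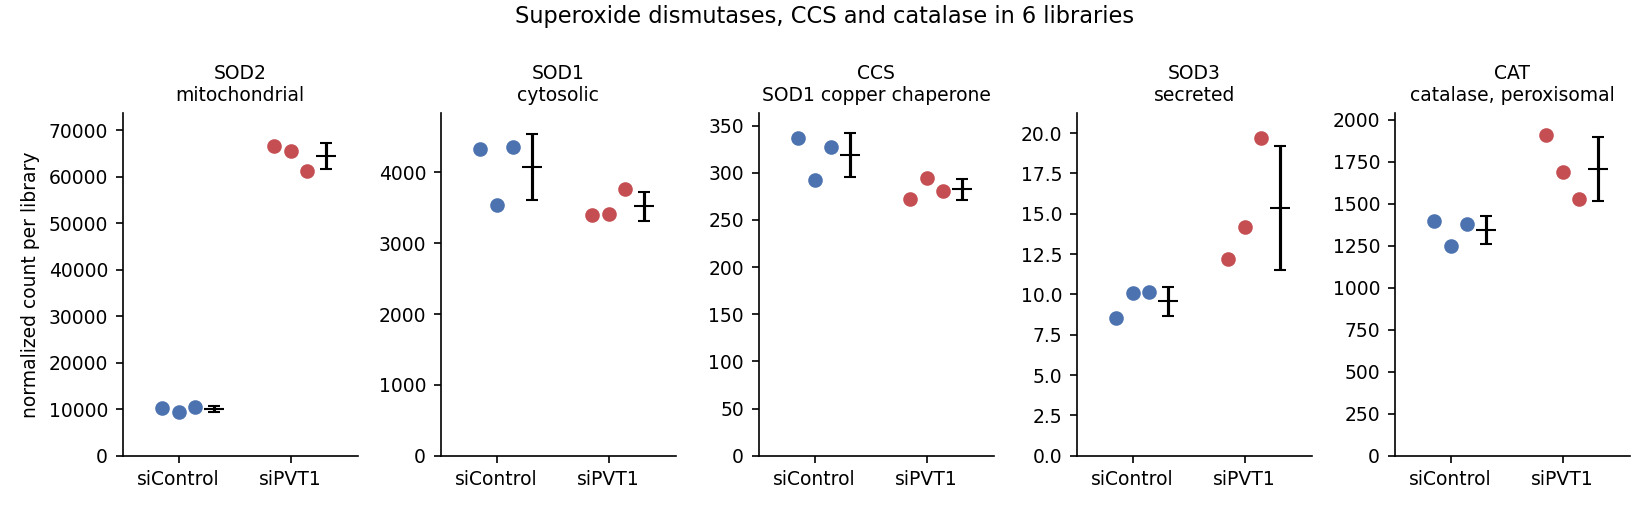
Normalized counts of SOD2, SOD1, CCS, SOD3 and CAT in each library, 1 panel per gene with its own linear axis from 0; points are the 3 siControl (blue) and 3 siPVT1 (red) libraries, and black marks the mean ± SD. SOD2 lies at 9386 to 10419.7 with siControl and at 61300.1 to 66699 with siPVT1, while the SOD1 and CCS groups overlap.

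SOD2 shares its locus with other transcribed genes, and these were measured too. Of the 18144 exonic bases of SOD2 in GENCODE 44, 437 (2.41%) also belong to WTAP and 133 (0.733%) to ACAT2, both on the opposite strand, and 939 (5.18%) to the same-strand transcript SOD2-OT1. The shared bases fell in 4 of its 15 transcripts. The strand setting of the counting is not given in the sources used here, so reads of the stretches shared with WTAP and ACAT2 cannot be assigned with certainty. SOD2-OT1 lies on the same strand as SOD2, so no strand setting would separate reads of the bases shared with it. WTAP, a subunit of the RNA m6A methyltransferase complex, went from 3676 ± 89.8 to 4128 ± 161 normalized counts (SD, n = 3 each; log2 fold change 0.17, SE 0.057; edgeR adjusted p = 0.035). ACAT2, which makes acetoacetyl-CoA for sterol synthesis, rose from 1298 ± 62.5 to 4095 ± 287 (log2 fold change 1.66, SE 0.074; edgeR adjusted p = 1.6e-06). SOD2-OT1 had 2, 1 and 2 counts in the siControl libraries and 11, 12 and 29 in the siPVT1 libraries. That is at least 6.08-fold higher with the siControl level set at 3 counts per library. It passed the filter on low counts through the siPVT1 libraries only, and the part of SOD2 reads in its counts was not tested. These 3 genes with shared exonic bases were higher with siPVT1, WTAP and ACAT2 by less than SOD2. The pseudogene HNRNPH1P1, whose position also overlaps SOD2, was at 9.87 ± 1.046 and 17.6 ± 4.94 (log2 fold change 0.81, SE 0.324) and did not pass (edgeR adjusted p = 0.061). The pseudogene SOD2P1 had 0 counts in every library.

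The cytosolic dismutase SOD1 (ENSG00000142168, chr21:31659666-31668931 on the plus strand) had overlapping groups and a small negative fold change. It was at 4334, 3539 and 4364 normalized counts in siControl replicates 1 to 3 and at 3396, 3412 and 3759.8 in siPVT1 replicates 1 to 3. The siControl replicate 2 value lay below siPVT1 replicate 3. The means were 4079 ± 468 and 3523 ± 205 (SD, n = 3 each; log2 fold change −0.21, SE 0.092). Without siControl replicate 2, a library of the pair with high LYZ and GPX2, the log2 fold change was −0.30, and without siPVT1 replicate 3 it was −0.28. In both cases the gene was called lower at an adjusted p under 0.05. Without siPVT1 replicate 2, the other library of that pair, it was −0.20 and not called. Leaving out any of the remaining libraries gave −0.20 to −0.16, also without a call. SOD1 was called lower with DESeq2 (−0.22) and with total-count scaling (−0.36) too. LYZ and GPX2 were high in siControl replicate 2, and their part in the SOD1 value was not tested. The pseudogene SOD1P1 had at most 2 counts in a library, and SOD1P2 and SOD1P3 had 0 in all 6, so almost no counts were assigned to these pseudogenes.

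The copper chaperone CCS (ENSG00000173992, chr11:66593153-66606019 on the plus strand) lay close to SOD1 in its direction and size. It was at 337, 292 and 327 normalized counts with siControl and at 272, 294 and 280.2 with siPVT1. The groups overlapped, with siControl replicate 2 below siPVT1 replicate 2. The means were 319 ± 23.6 and 282 ± 11.2 (SD, n = 3 each; log2 fold change −0.18, SE 0.093). With total-count scaling the value was −0.32 and CCS was called lower.

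The secreted dismutase SOD3 (ENSG00000109610, chr4:24789912-24800842 on the plus strand) was barely detected. It had 9, 10 and 11 counts in siControl replicates 1 to 3 and 11, 13 and 21 in siPVT1 replicates 1 to 3, or 8.55, 10.1 and 10.1 against 12.2, 14.2 and 19.7 normalized counts. All siPVT1 libraries lay above all siControl libraries on the normalized scale, but the exact 95% Poisson interval of 9 counts (4.12 to 17.1) overlapped that of 21 counts (12.999 to 32.1), and these intervals cover counting error only. The means were 9.59 ± 0.899 and 15.4 ± 3.87 (SD, n = 3 each; log2 fold change 0.68, SE 0.318), and without siPVT1 replicate 3, the highest library, the log2 fold change was 0.44. A difference of this size could not be resolved at this depth.

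Catalase (CAT, ENSG00000121691, chr11:34438934-34472060 on the plus strand) was modestly higher with siPVT1. It was at 1399, 1246 and 1378 normalized counts in siControl replicates 1 to 3 and at 1909, 1687 and 1530.35 in siPVT1 replicates 1 to 3. The groups did not overlap. The means were 1341 ± 82.8 and 1709 ± 190.4 (SD, n = 3 each), 1.27-fold higher with siPVT1 (log2 fold change 0.35, SE 0.093). That value depended on the scaling, since with libraries scaled by their total counts it was 0.20 and no longer passed the threshold.

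Counted over the 5 genes, 2 (SOD2 and CAT) were called higher at an adjusted p under 0.05, beside 29.5% of all genes tested, and 0 were called lower, beside 28.4%. With total-count scaling 1 was higher and 2 were lower (SOD1 and CCS), and SOD1 was lower with DESeq2 and without siControl replicate 2 or siPVT1 replicate 3. With a change of at least 2-fold as well, 1 (SOD2) was higher, beside 11.8%, and 0 were lower, beside 9.64%. All siPVT1 libraries lay above all siControl libraries for 3 (SOD2, SOD3 and CAT), beside 33.2% of genes, and below for 0, beside 32.3%. Nothing is read from these counts, because the genes were chosen with these values known. The median log2 fold change of the 5 genes was 0.35, beside 0.001 over all genes tested. siControl replicate 2 was the lowest siControl library in 4 of the 5 genes, all but SOD3.

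**Figure D2:**
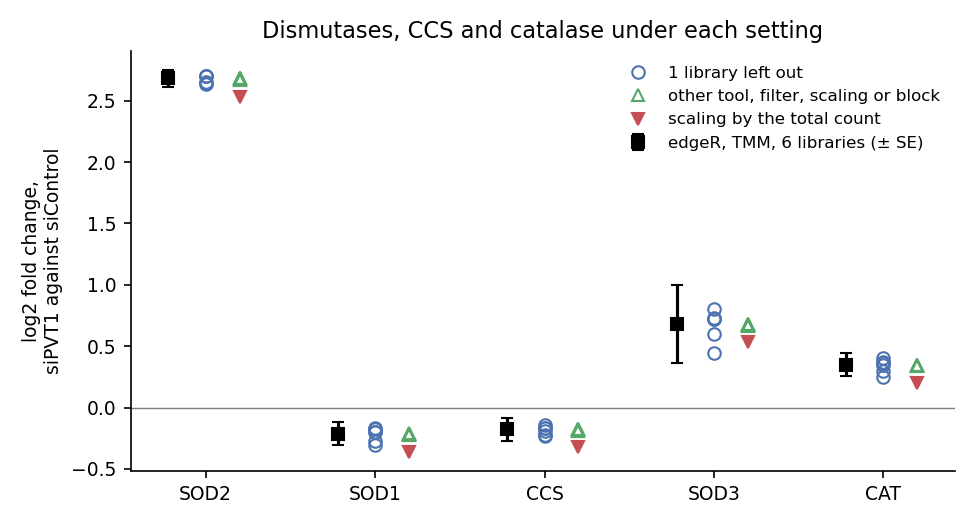
Log2 fold change of siPVT1 against siControl for each gene under the fit on 6 libraries and 12 alternatives: black squares show that fit with its SE, blue circles 1 library left out, green triangles another tool, filter, scaling or replicate block, and the red triangle scaling by the total count. SOD2 stays between 2.53 and 2.702, and the other 4 genes stay between −0.36 and 0.81.

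Ratios between the genes within a library contrast the compartments without any scaling between libraries. The log2 ratio of SOD2 to SOD1 was 1.26, 1.41 and 1.26 in the siControl libraries and 4.30, 4.26 and 4.03 in the siPVT1 libraries. The means were 1.31 ± 0.087 and 4.20 ± 0.146 (SD, n = 3 each), a difference of 2.89, or 7.40-fold, with no overlap. The log2 ratio of SOD2 to SOD3 was 10.17, 9.79 and 9.94 with siControl and 12.35, 12.12 and 11.57 with siPVT1, a difference of 2.05 that rests on at most 21 counts of SOD3. SOD2 was thus higher relative to both the cytosolic and the secreted dismutase in every siPVT1 library. The log2 ratio of SOD2 to CAT went from 2.91 ± 0.016 to 5.24 ± 0.103, a difference of 2.34. The log2 ratio of SOD1 to its chaperone CCS was 3.68, 3.60 and 3.74 with siControl and 3.64, 3.53 and 3.74 with siPVT1. That pair kept nearly the same ratio, with a difference of −0.03 and SDs of 0.071 and 0.105 that are larger than it.

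**Figure D3:**
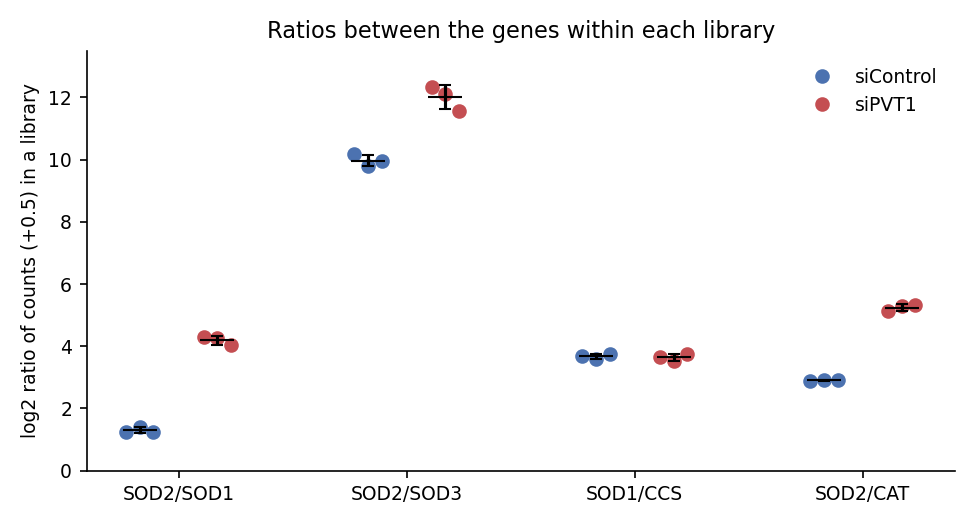
Log2 ratio of counts (each with 0.5 added) between 2 genes within each library; points are libraries (siControl blue, siPVT1 red) and black marks the mean ± SD, n = 3. The 3 ratios with SOD2 on top are higher in all siPVT1 libraries, and the SOD1 to CCS ratio lies between 3.53 and 3.74 in all 6.

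Levels of different genes can be compared only per transcript length, and here the length used decided the order. With the longest coding transcript as the length (14167 bases for SOD2, 895 for SOD1), SOD1 led in the siControl libraries at 4557 normalized counts per kb, ahead of SOD2 at 709.8 ± 41.0, CAT at 585, CCS at 299 and SOD3 at 6.77. In the siPVT1 libraries SOD2 led on that scale at 4553 ± 200 per kb, ahead of SOD1 at 3936, CAT at 746, CCS at 265 and SOD3 at 10.8. With the median length of the coding transcripts (917 bases for SOD2), SOD2 led in both groups, at 10966 ± 634 and 70341 normalized counts per kb, ahead of SOD1 at 4635 and 4003. The counts are per gene, so they do not tell which of the 11 coding SOD2 transcripts, 507 to 14167 bases long, was used. CAT, CCS and SOD3 kept their order below both under either length, and neighbours in each order did not overlap between the libraries of a group.

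**Figure D4:**
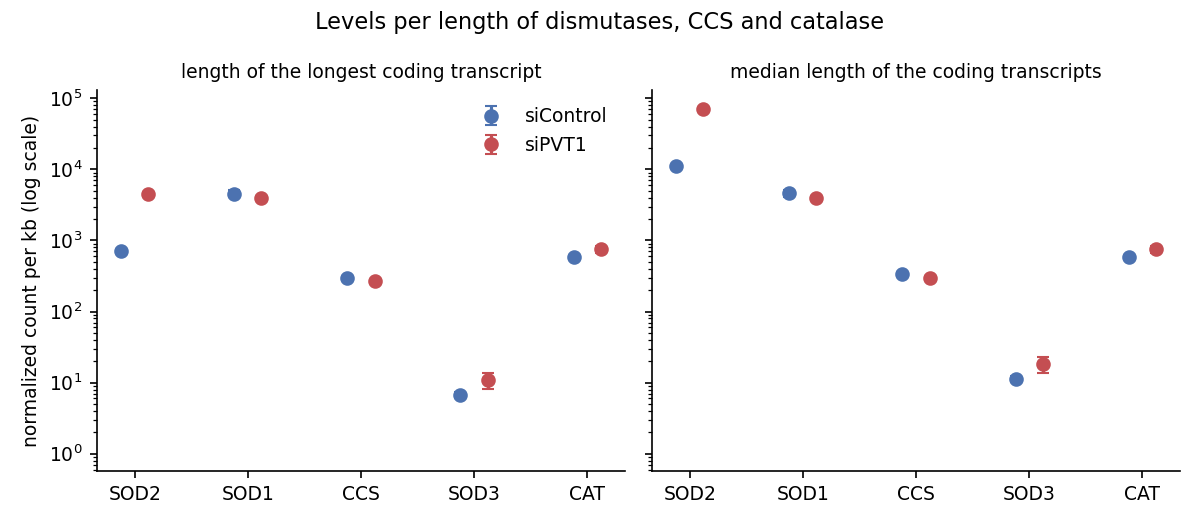
Normalized counts per kb (log scale) as mean ± SD of 3 libraries, siControl blue and siPVT1 red, by the longest coding transcript (left) and the median length of the coding transcripts (right). In the siControl libraries SOD1 (4557) is above SOD2 (709.8) on the left and below it (4635 against 10966) on the right.

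Genes with the most similar pattern over the 6 libraries were found by the root mean square difference of log2 normalized counts, centred on the siControl mean. For SOD2 these were FKBP1B (0.061), TNFAIP8L1 (0.074) and DCHS1 (0.087). For SOD1 they were the ribosomal protein gene RPS26 (0.022), the complex I subunit gene NDUFB10 (0.036) and RTRAF (0.039), and for CCS the mitochondrial thioredoxin reductase gene TXNRD2 (0.028), HNRNPH3 (0.032) and IDH3B (0.033). For CAT they were the galectin gene LGALS3 (0.025), EIF4B (0.026) and the complex II subunit gene SDHA (0.027), and for SOD3 they were FBXO43 (0.066), AP000311.1 (0.070) and HYAL3 (0.073). About 13263 genes with a mean of at least 50 normalized counts were searched for each, so close matches were available for any pattern.

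Hydrogen peroxide from the dismutases is passed to peroxidases in each compartment. Genes of peroxidases and of the enzymes and carriers that serve them were listed together. This list and those below were chosen with earlier results of these data known, so their calls are read as a description. In the cytosol more of these genes were lower than higher. Of 12 cytosolic peroxide-reducing genes, 0 were higher, 7 were lower and 5 did not pass (edgeR's quasi-likelihood test, adjusted p under 0.05 over all genes), beside 29.5% higher and 28.4% lower over all genes tested. Their median log2 fold change was −0.34, beside 0.001 over all genes. With total-count scaling 11 were lower, and without siPVT1 replicate 3, 1 was higher. These p-values measure the spread between the libraries, since nothing in the labels says that the libraries came from separate cultures. SRXN1, which repairs overoxidized peroxiredoxins, fell by 2.59 (SE 0.116) on the log2 scale, from 9466 ± 398 to 1566 ± 258 normalized counts (SD, n = 3 each). Among the other genes that fell, log2 fold changes were −2.24 and −2.04 for GCLM and GCLC of glutathione synthesis, −1.63 for the thioredoxin reductase TXNRD1 and −1.27 for the glutathione reductase GSR. The peroxidases themselves differed less. PRDX6 (−0.35) and PRDX1 (−0.32) were lower, while GPX1 (−0.20) and PRDX2 (−0.14) did not pass. The glutaredoxin GLRX had the highest value, 0.25, and did not pass.

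In the mitochondria, where SOD2 works, the 8 peroxide-reducing genes held 4 that were higher, 2 that were lower and 2 that did not pass, beside the same 29.5% and 28.4% of all genes. With total-count scaling, 3 were higher and 4 lower. Their median log2 fold change was 0.10, which turned to −0.05 when libraries were scaled by total counts. The lipid peroxide reductase GPX4, which has a mitochondrial form, rose by 0.96 (SE 0.118) and the peroxiredoxin PRDX5 by 0.80. PRDX3, the matrix peroxiredoxin, rose by 0.34, and NNT, which makes NADPH in the matrix, by 0.38. The thioredoxin TXN2 (−0.79) and the glutaredoxin GLRX2 (−1.32) fell. In the secretory pathway and outside the cell, where SOD3 works, 1 of the 4 tested genes was higher (GPX8, 0.33), beside 29.5% of all genes. The plasma glutathione peroxidase GPX3 (−0.99) was the 1 that was lower, beside 28.4%, and GPX7 and PRDX4 did not pass.

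Genes of the sources of superoxide and peroxide were measured as well. Of 27 oxidase genes, 17 were tested, of which 10 were higher (beside 29.5% of all genes), 5 lower (beside 28.4%) and 2 did not pass, and the median log2 fold change was 0.57. Without siPVT1 replicate 1 or without siPVT1 replicate 2, 6 were higher. With edgeR's filterByExpr in place of the filter on low counts, 7 were higher. The endoplasmic reticulum oxidases ERO1A and ERO1B, which make peroxide during disulfide formation, rose by 1.07 and 1.11, and CYBA, the common small subunit of NADPH oxidases, by 0.57. The polyamine oxidase gene PAOX rose from 8.68 ± 2.74 to 66.2 ± 16.9 normalized counts (SD, n = 3 each). NOXA1, DUOX1 and NCF4 had at most 3 counts in any siControl library and were at least 2.67-, 3.73- and 3.15-fold higher with siPVT1 against that floor. These 3 passed the filter on low counts through the siPVT1 libraries only, so they could not have been counted as lower.

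Genes of copper and manganese supply were listed as well, and some of them serve enzymes other than the dismutases. Of 11 tested copper supply genes, 3 were higher, 3 lower and 5 did not pass, beside 29.5% higher and 28.4% lower over all genes, with a median log2 fold change of −0.16. With total-count scaling, 6 were lower. The copper exporter ATP7B rose by 0.83, the copper chaperone for cytochrome oxidase COX17 by 0.50 and the importer SLC31A1 by 0.25. SCO1 (−0.73) and COX11 (−0.63), which deliver copper to cytochrome oxidase, and SLC31A2 (−0.37) fell. Of 5 tested manganese supply genes, 0 were lower (beside 28.4% of all genes) and 3 were higher (beside 29.5%). These were the metal importer SLC11A2 (0.49), the importer SLC39A8 (0.18) and the Golgi pump ATP2C1 (0.18), and the count was 1 with total-count scaling, with no filter, without any 1 siControl library and without siPVT1 replicate 2. No copper or manganese supply gene changed by 2-fold or more. Catalase reaches the peroxisome through the peroxins, of which 2 of 13 were higher, 5 lower and 6 did not pass, beside 29.5% and 28.4% of all genes, with a median of −0.04. PEX2 rose by 0.44 and PEX7, the receptor for one class of peroxisome signals, by 0.35, while PEX10 (−0.53), a ligase partner of PEX2, PEX3 (−0.45) and PEX16 (−0.40) were among those that fell. The count of lower peroxins was 8 with total-count scaling, 2 without siControl replicate 1 or 3 and 3 without siControl replicate 2, and the count of higher ones was 1 without siControl replicate 1, siControl replicate 3 or siPVT1 replicate 1.

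Transcription factors and coregulators that have been tied to these genes held 11 of 26 that were higher, 7 that were lower and 8 that did not pass, the lower share being near the 28.4% of all genes and the higher one set beside 29.5%. BACH1, a repressor of antioxidant genes, rose by 1.77 (SE 0.133), from 4139 ± 103 to 14128 ± 2795 normalized counts (SD, n = 3 each). KEAP1, the inhibitor of the antioxidant factor NRF2, fell by 1.001 on the log2 scale. NFE2L2, the gene of NRF2, was also called lower (−0.22, SE 0.055). The deacetylase SIRT1 fell as well (−0.99). FOXO1 rose by 1.31, PPARG by 1.0002 and the NF-kB subunit NFKB2, which is on the next list too, by 0.86. The other NF-kB subunits differed less. REL (0.40) and NFKB1 (0.18) were called higher, while RELA (0.19) and RELB (−0.14) did not pass. Of 17 tested NF-kB responsive genes other than SOD2, 14 were higher (beside 29.5% of all genes), 1 was lower (beside 28.4%) and 2 did not pass. Their median log2 fold change was 1.23. The list was chosen with earlier results of these data known, and the part of NF-kB in the SOD2 value was not tested. The adhesion molecule ICAM1 rose by 3.39 (SE 0.111) and the cytokine IL1B by 2.81 (SE 0.071), the latter from 6434 ± 125 to 45025 ± 3263 normalized counts (SD, n = 3 each). NFKBIA, the inhibitor of NF-kB, NFKBIZ and IER3 rose by 1.28, 1.35 and 1.39, and TRAF1 fell by 0.98 on the log2 scale. Of 12 matrix housekeeping genes, which share the compartment of SOD2, 3 were higher (beside 29.5% of all genes), 6 lower (beside 28.4%) and 3 did not pass, with a median of −0.18. The isocitrate dehydrogenase IDH2 rose by 1.35 and the protease LONP1 by 0.67, while the chaperones HSPD1 (−1.02) and HSPA9 (−0.89) fell.

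**Figure D5:**
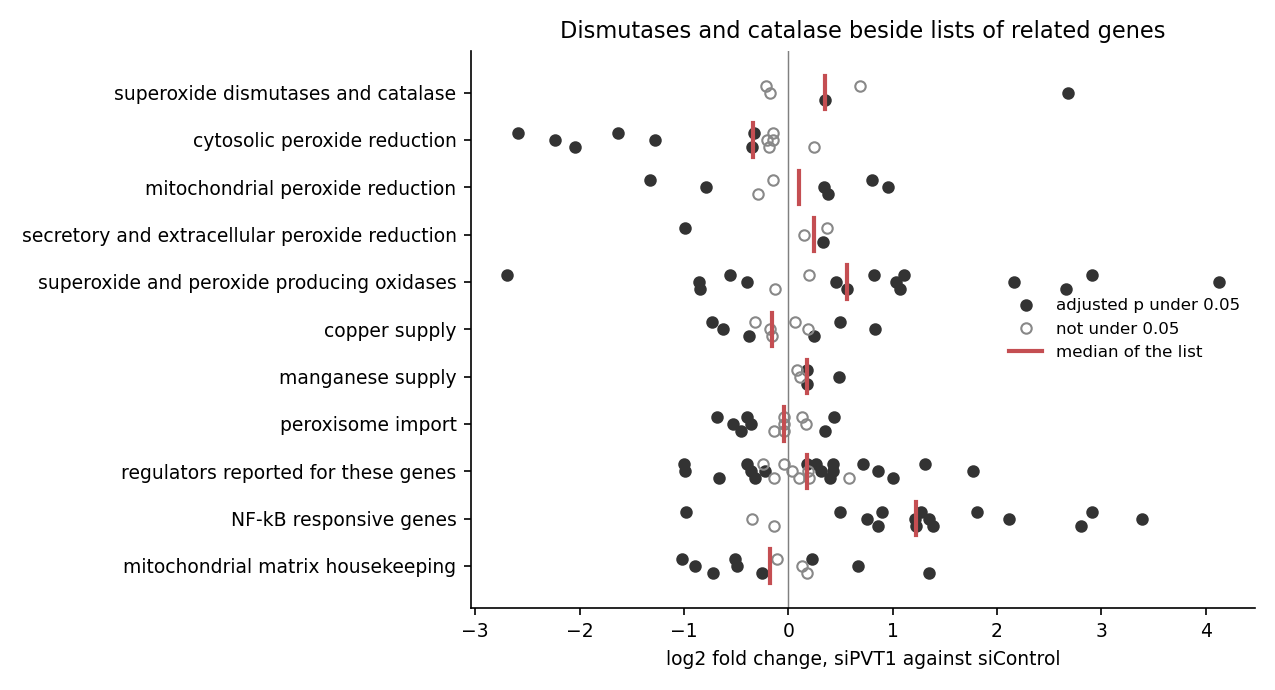
Log2 fold change of siPVT1 against siControl for each tested gene of 11 lists; filled points passed an adjusted p of 0.05, open points did not, and the red bar is the median of the list. The cytosolic peroxide reduction list has its median at −0.34 and the NF-kB responsive list at 1.23; the points of NOXA1, DUOX1 and NCF4, among the oxidases, are fitted against siControl libraries with 3 counts or fewer.

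Markers of other cell types were measured beside these values, and their part in them was not tested. The counts of markers called stand beside 29.5% higher and 28.4% lower over all genes tested. All 4 endothelial markers were higher, with a summed level of 2061 to 2105 normalized counts in the siControl libraries and 8642 to 10903 in the siPVT1 libraries, most of it the endothelial cadherin CDH5 (1993 ± 7.07 to 9290 ± 1106). Of 6 fibroblast markers, 3 of the 4 tested were higher, with sums of 217 to 229 and 804 to 857, while the fibroblast genes DCN and COL3A1 had at most 3 counts in any library. Of 6 leukocyte markers, 1 of the 3 tested was lower (CD14, 7.64 ± 1.74 to 2.77 ± 0.577). CD14 passed the filter on low counts through the siControl libraries only. CD68, most of the summed level, did not pass at 582 ± 31.5 and 719 ± 157. The sums were 608 to 802 and 594 to 907, with CD3E at 0 in all libraries and PTPRC at 2 counts or fewer. Of the 11 epithelial and ovarian carcinoma markers, 5 were higher and 2 lower, with sums of 26929 to 30193 and 33287 to 36996, and the ovarian lineage factor PAX8 was present at 2600 to 2646 and 4626 to 5840.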

How the data were processed

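Poly(A) RNA-seq of 6 SK-OV3 libraries was available as 1 table of estimated counts per gene, which the authors made, by their notes and methods, with bcl2fastq 2.20.0, STAR 2.7.3a and Salmon 0.14.1 on GRCh38 and GENCODE 35 and deposited as whole numbers. DESeq2 1.28.1 is also named in those notes. Salmon shares reads among similar transcripts, so a count is an estimate. Every column of values was used (0 left out).

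Genes with at least 5 normalized counts in 3 libraries were tested with edgeR 4.0.16 (R 4.3.3; TMM scaling, quasi-likelihood test on the whole-number counts, Benjamini-Hochberg adjustment over 19008 genes), siPVT1 against siControl without further terms. Scripts were tested on simulated data. The alternatives were DESeq2 1.42.0, its size factors, total-count scaling, other filters, a replicate block, and leaving out each library. Replicate numbers were not used as pairs in the main fit, and the labels do not say whether they pair the libraries. The members and lists were chosen with earlier results of these data known. Genes were named by a rule: the 5 genes, PVT1, overlapping genes and pseudogenes, the highest and lowest log2 fold change of each list with up to 4 more by the smallest p, and 3 pattern neighbours per gene. DUOX1, NCF4, GPX2, DCN, COL3A1, NFE2L2, NFKB1, REL, RELA, RELB and the leukocyte genes were named after their values were seen. Some genes that the rule names are not reported here. Promoter windows are RefSeq's, and gene models are GENCODE 44.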

Additional observations from a re-analysis of the deposited data

How the results depend on the processing

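SOD2 and SOD3 kept their direction and their side of the threshold under all 12 alternatives, at 2.53 to 2.702 and 0.44 to 0.81 on the log2 scale. The other 3 genes kept their direction. SOD1 passed the threshold with DESeq2 (−0.22) and with total-count scaling (−0.36), and leaving out 1 library gave −0.30 to −0.16, with a call without siControl replicate 2 or without siPVT1 replicate 3. Total-count scaling moved the median of all genes from 0.001 to −0.148 and the share of higher calls from 55.1% to 43.8%. Under it CAT was 0.20 (not past the threshold) and CCS −0.32 (past it), 1 of the 5 genes was higher and 2 were lower, against 1 lower with DESeq2 and 0 to 1 lower without 1 library. The cause of these shifts was not tested.

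Among the lists, total-count scaling gave 11 lower for cytosolic and 4 for mitochondrial peroxide reduction, 6 for copper supply, 8 for peroxisome import and 3 for NF-kB responsive genes, and 0 higher for the secretory list, 1 for manganese supply and 1 for peroxisome import. Without a filter, 1 manganese gene was higher and 2 NF-kB responsive genes were lower. Without 1 library, counts ran from 0 to 1 higher for cytosolic peroxide reduction, 1 to 2 for the secretory list, 6 to 10 for oxidases (6 without siPVT1 replicate 1 or 2), 1 to 3 for manganese supply and 1 to 3 for peroxisome import, and from 2 to 6 lower for peroxisome import and 1 to 2 for NF-kB responsive genes. The SOD1 to CCS log2 ratio difference ran from −0.085 to 0.020, reversed without siPVT1 replicate 2. By the median transcript length, siControl levels were 10966 (SOD2), 11.3 (SOD3) and 338 (CCS) normalized counts per kb.

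Same-numbered libraries showed little shared deviation over all genes (correlations −0.045, 0.052 and 0.0061). The best match of siControl replicate 1 was siPVT1 replicate 3, at 0.075, and that of siControl replicate 2 was siPVT1 replicate 2. With 3 libraries per group, these values cannot settle whether the numbers pair the libraries. LYZ and GPX2 were high in both libraries numbered 2. With the replicate block, 1 manganese gene was higher and 2 NF-kB responsive genes were lower, and no other list count moved past 1.5 times. SOD3, at 9 to 21 counts, is limited by depth, and isoforms of SOD2 are not resolved.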
